A study of Homo sapiens with 45 samples.

Results

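RUNX1, RUNX2, RUNX3 and CBFB are the 4 genes described here, out of 41582 genes measured in 45 poly(A) RNA libraries of human sarcoma cell lines. They were chosen from earlier results of these same libraries, by symbol, so their levels in the 2 tumour types are given as a description with no test. Of the 13 lines, 7 were Ewing sarcoma lines (SKES1, EW24, MHHES1, TC71, EW3, RDES and A673) and 6 were osteosarcoma lines (U2OS, G292, SAOS2, HOS-MNNG, KHOS and MG63), each untreated and with 3 libraries. Another 3 were made from A673 that carries sh908, a hairpin against the potassium channel gene KCNN1, with no doxycycline added (uninduced), and 3 from the same cells with doxycycline added to switch the hairpin on (induced). Parental A673 carries no hairpin and had no doxycycline, and no induced control hairpin was analysed here, so an effect of doxycycline and one of the hairpin cannot be told apart. The labels do not say whether the sh908 cells were 1 clone or a pool, for how long doxycycline was given, or whether the libraries of a group came from separate cultures, so p-values measure only the spread between these libraries. HOS-MNNG and KHOS both derive from the HOS line and are not independent tumours.

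RUNX proteins are transcription factors that bind DNA through a shared Runt domain, and CBFB is the subunit that does not touch DNA but holds the Runt domain in its binding form. RUNX1 is known as a master gene of blood stem cells, RUNX2 as the master gene of the bone-forming osteoblast, and RUNX3 for its roles in T cells, sensory neurons and epithelia. Each RUNX gene is transcribed from a distal start (P1) and a proximal start (P2), which give proteins with different N-termini. Ewing sarcoma depends on a fusion protein, most often EWS::FLI1, and osteosarcoma is a tumour that makes bone matrix.

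The files gave levels per RefSeq transcript, so the 2 starts of each RUNX gene could be set side by side where the start of a transcript is annotated. They lie far apart in the genome. On GRCh38.p14, RUNX1 (gene ID 861) spans chr21:34787801-35049302, RUNX2 (gene ID 860) chr6:45328330-45551082, RUNX3 (gene ID 864) chr1:24899511-24965138 and CBFB (gene ID 865) chr16:67029149-67101058. The distal start of RUNX2 falls within the span of SUPT3H (gene ID 8464, chr6:44809057-45377934), which is read from the opposite strand and encodes a subunit of histone acetyltransferase complexes. The stretches below, from RefSeq on GRCh38.p14, show the RUNX binding motif ACCACA, on either strand, in capitals where it occurs near the distal starts, and a stretch before 2 proximal starts for contrast. These starts are those of RefSeq, and the proximal starts of RUNX2 and RUNX3 in GENCODE v29, which the shares further on use, lie further downstream.
RUNX2 distal, chr6:45328080-45328156, plus strand, from 250 bases before the start: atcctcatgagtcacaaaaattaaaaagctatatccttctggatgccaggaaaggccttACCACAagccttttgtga
RUNX2 distal, chr6:45328231-45328260, plus strand: gtgaggtcacaaACCACAtgattctgcctc
RUNX2 distal, chr6:45328341-45328370, plus strand: aaacaACCACAgaACCACAagtgcggtgca
RUNX3 distal, chr1:24965120-24965149, minus strand: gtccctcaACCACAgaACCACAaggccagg
RUNX1 proximal, chr21:34888700-34888819, minus strand: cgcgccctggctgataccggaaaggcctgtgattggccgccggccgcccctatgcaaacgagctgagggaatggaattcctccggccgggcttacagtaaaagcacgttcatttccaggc
RUNX3 proximal, chr1:24930277-24930396, minus strand: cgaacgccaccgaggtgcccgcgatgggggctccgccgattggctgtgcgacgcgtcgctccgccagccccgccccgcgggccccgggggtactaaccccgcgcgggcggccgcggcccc

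The windows at the distal starts of RUNX2 and RUNX3 share a tandem arrangement that was not found at the proximal starts. The distal start of RUNX1 and the start of CBFB were not analysed here. A window of 300 bases (250 before and 50 after the start) was searched for ACCACA on both strands at each of 35116 RefSeq starts, and 13.1% of all windows held a match and 1.31% held 2 or more. The RUNX2 distal window held 4 matches, which began 191 and 87 bases before the start and 16 and 24 bases after it. The RUNX3 distal window held 2, which began 131 and 123 bases before the start. The proximal windows of RUNX1, RUNX2 and RUNX3 held 0. Joined with the 2 bases between them, the paired matches read ACCACAGAACCACA in both genes, and this run of 14 bases occurred in 3 of the 35116 windows (0.0085%), those of RUNX2, RUNX3 and the olfactory receptor gene OR52N2. The proximal windows were GC-rich (72% for RUNX1, 76% for RUNX2 and 76% for RUNX3), against 42.7% in the RUNX2 and 66.3% in the RUNX3 distal window. A match of letters is a description and no binding was measured.

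The libraries held 15974173 to 51413254 estimated counts, and libraries of a group correlated at 0.956 to 0.992 (Pearson r of log2(TPM + 1) across genes). TPM (transcripts per 1e6) is a share of transcripts scaled for their length, and is the unit of every level below. Of 5 Ewing sarcoma markers, 4 were called higher in the Ewing sarcoma lines by edgeR (FDR under 0.05), among them NKX2-2, a transcription factor gene used in its diagnosis, at 17.9 to 139 TPM in the Ewing sarcoma lines and at most 5.55 TPM in the osteosarcoma lines. CD99 was not called (FDR 0.31) and overlapped, at 290 to 1701 TPM against 116 to 944 TPM. NR0B1 was called, but in RDES (0.316 TPM) and MHHES1 (0.651 TPM) it lay below the osteosarcoma line U2OS (2.45 TPM). Of the 5 osteoblast markers, 3 had the higher line median in Ewing sarcoma and 2 in osteosarcoma. SP7, which encodes the osteoblast factor osterix, measured 22.1 TPM in SAOS2 and at most 0.168 TPM in any other line, and its line median was 0.0124 TPM in osteosarcoma against 0.0711 TPM in Ewing sarcoma. ALPL, the alkaline phosphatase of bone, had a median of 4.37 TPM among osteosarcoma lines (0.122 to 824, highest in SAOS2) and 36.1 TPM among Ewing sarcoma lines (3.44 to 187), and SKES1 (187 TPM) and MHHES1 (110 TPM) exceeded every osteosarcoma line but SAOS2. BGLAP, the osteocalcin gene, had medians of 0.430 and 0.916 TPM in the same order. The collagen genes COL1A1 (635 against 10.8 TPM) and COL1A2 (61.7 against 1.12 TPM) had the higher median in osteosarcoma. Blood cell markers were near 0: the sum of 8 markers was at most 12.1 TPM, in MG63, where CD14 made up 9.87 TPM, and at most 5.33 TPM in the other groups. PTPRC, the pan-leukocyte gene, was highest in EW24 (1.23 TPM), and SPI1, a myeloid factor downstream of RUNX1, was at most 0.180 TPM in any line.

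RUNX1 was present in every osteosarcoma line and near 0 in every Ewing sarcoma line. The 3 libraries measured 46.1, 47.9 and 31.1 TPM in U2OS, 28.9, 31.5 and 31.2 TPM in G292, and 17.99, 20.04 and 20.9 TPM in HOS-MNNG. SAOS2 followed with 14.2, 12.9 and 13.1 TPM, KHOS with 10.9, 13.4 and 12.8 TPM, and MG63 with 9.15, 8.58 and 8.76 TPM. Among neighbours in this order, the libraries of U2OS and G292 overlapped, as did those of SAOS2 and KHOS, and the other osteosarcoma neighbours lay apart. The Ewing sarcoma lines had line means of 0.00668 (TC71) to 0.0702 TPM (EW24), with a median of 0.0377 TPM, and all neighbours among them overlapped.

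In reads, the 21 Ewing sarcoma libraries held 47 RUNX1 counts in all against 39082 in the osteosarcoma libraries. Of those 21 libraries, 5 were at 0, and the highest held 11 counts (MHHES1 replicate 2). As a share of all counts, the osteosarcoma libraries held 996 times as much RUNX1 (95% exact Poisson interval of the 47 counts, 749 to 1356, which covers counting error only). The fitted log2 fold change of line sums, Ewing sarcoma over osteosarcoma, was -9.94 (SE 0.68), and it stayed between -10.27 and -9.74 with any line, or any replicate of all lines, left out. RUNX1 was the only one of the 4 genes whose line means did not overlap between the tumour types, beside a background of 5.59% of the 21975 genes tested. That share is printed for scale only, because the genes were chosen on this contrast. In RNA from bulk cultures, fewer cells of a kind and less RNA per cell cannot be told apart.

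**Figure D1:**
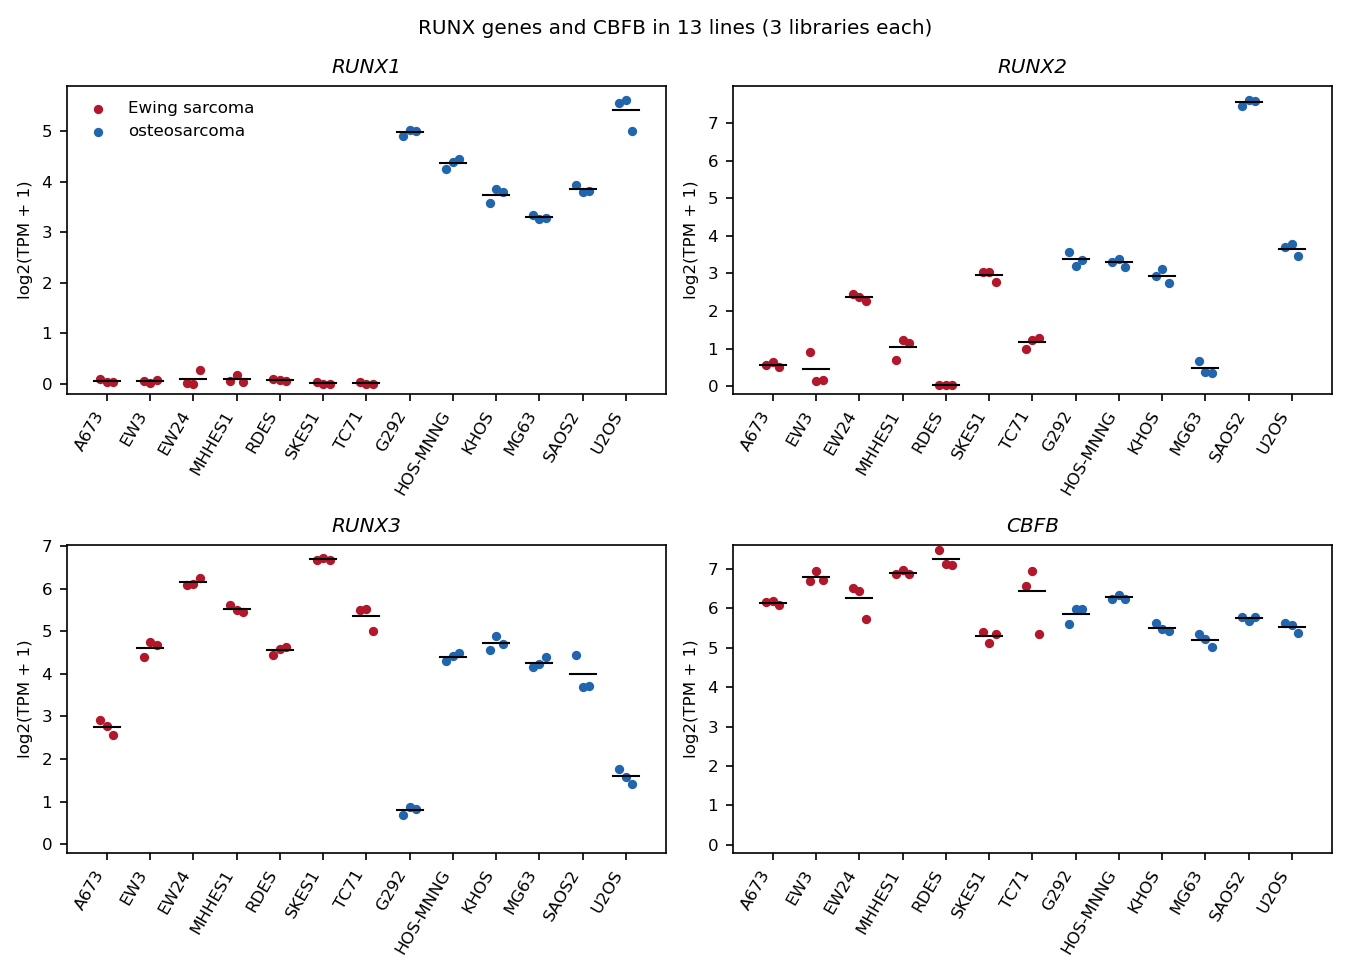
Level of RUNX1, RUNX2, RUNX3 and CBFB as log2(TPM + 1) in each of 3 libraries per line (points) with the line mean (bar), Ewing sarcoma lines in red and osteosarcoma lines in blue. RUNX1 lies near 0 in all 7 Ewing sarcoma lines, RUNX2 peaks in SAOS2 at 186.7 TPM, RUNX3 spans 0.733 (G292) to 102 TPM (SKES1), and CBFB lies between 35.8 and 151 TPM.

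The RUNX1 present in osteosarcoma lines came mainly from the proximal start. The tables listed 18 RUNX1 transcripts, and GENCODE v29 gave a start for 3 of them, 2 proximal and 1 distal. NM_001001890.3, a proximal transcript, held 63.9% of RUNX1 TPM as a mean of the 6 osteosarcoma lines, from 54.7% ± 4.21 in KHOS to 70.2% ± 7.82 in U2OS (SD, n = 3 libraries). By estimated counts, which weight long transcripts more, its mean share was 75.2%. The distal transcript NM_001754.5 held 10.9% ± 5.87 of TPM in HOS-MNNG, 10.8% ± 1.68 in KHOS, 6.397% ± 1.95 in G292, 4.79% ± 5.02 in MG63, 2.01% ± 1.09 in U2OS and 1.91% ± 1.72 in SAOS2. Shares were given only where each library of a line held at least 30 counts of the gene, which no Ewing sarcoma line reached for RUNX1. RUNX1-IT1, an intronic transcript of the locus, was at most 0.194 TPM (U2OS), and LINC01426, a neighbouring long noncoding RNA, was at most 0.724 TPM (HOS-MNNG).

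RUNX2 stood far above all other lines in SAOS2, with 175, 193 and 192 TPM in its 3 libraries. Then came U2OS with 11.95, 12.8 and 9.99 TPM, G292 with 10.8, 8.21 and 9.15 TPM, and HOS-MNNG with 8.85, 9.49 and 8.07 TPM, and these neighbours overlapped. KHOS had 6.63, 7.65 and 5.65 TPM. MG63 was low, with 0.603, 0.290 and 0.277 TPM, within the range of the Ewing sarcoma lines. The line means of those ranged from 0.0223 TPM in RDES (7 counts in 3 libraries) to 6.77 TPM in SKES1, with a median of 1.06 TPM. The groups therefore overlapped. The mean of the line means was 2.01 ± 2.50 TPM over 7 Ewing sarcoma lines and 37.2 ± 73.3 TPM over 6 osteosarcoma lines (SD). The fitted log2 fold change was -5.11 (SE 1.02), and -3.82 without SAOS2.

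Much of the RUNX2 TPM belonged to 2 short noncoding transcripts from the distal start, NR_103532.2 (450 bases) and NR_103533.2 (415 bases), whose few reads weigh heavily per length. In SAOS2 they held 65.4% ± 0.604 of RUNX2 TPM but 7.90% ± 0.0582 of its counts (SD, n = 3). In SKES1 they held 90.5% ± 1.06 of TPM and 30.4% ± 3.07 of counts, in EW24 91.96% ± 1.52 and 34.4% ± 5.13, and in G292 51.8% ± 8.73 and 5.01% ± 1.73. They were a small part in U2OS, with 4.98% ± 1.05 of TPM. Over the 4 coding transcripts alone, RUNX2 measured 64.5 ± 2.47 TPM in SAOS2, 11 ± 1.39 TPM in U2OS, 8.73 ± 0.716 TPM in HOS-MNNG, 6.46 ± 0.810 TPM in KHOS and 4.44 ± 0.240 TPM in G292 (SD, n = 3). On that scale, which was added after these values were seen, every Ewing sarcoma line lay at or below 0.643 TPM (SKES1), and MG63 measured 0.387 ± 0.179 TPM. The osteosarcoma lines other than MG63 thus lay above all Ewing sarcoma lines for coding RUNX2, which the total TPM did not show.

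The lines also differed in which RUNX2 transcripts they held. The distal shares given here are the least that could be assigned, since NM_001369405.1 has no start in GENCODE v29. By counts, transcripts with the distal start held 67.0% ± 7.48 in SAOS2 and 40.5% ± 9.56 in G292, but 8.24% ± 7.65 in U2OS, 7.02% ± 6.43 in HOS-MNNG and 6.61% ± 11.2 in KHOS (SD, n = 3). By TPM, which weights the short transcripts more, the distal share was 87.7% in SAOS2, 69.9% in G292, 12.7% in U2OS, 7.76% in HOS-MNNG and 8.95% in KHOS. The proximal NM_001278478.2 held 53.5% ± 25.6 in HOS-MNNG, 49.4% ± 15.8 in U2OS and 33.8% ± 13.6 in KHOS. NM_001369405.1 held most of the rest, with 59.6% ± 13.1 in KHOS, 42.3% ± 14.4 in U2OS and 39.5% ± 19.2 in HOS-MNNG. By counts, use of the distal start therefore cannot be ranked between these lines and G292. By TPM, the mean distal share of U2OS and HOS-MNNG stayed below that of G292 even with all of NM_001369405.1 counted as distal. In KHOS that sum came close to G292. In U2OS and HOS-MNNG the mean distal share stayed below that of SAOS2 even with all of NM_001369405.1 counted as distal, by counts and by TPM, and in KHOS the same sum came close to SAOS2 by counts. The distal share in SKES1 was 100% of 235 counts, and in EW24 76.8% ± 40.1 of counts. Shares within these 2 Ewing sarcoma lines rest on 36 to 85 counts per library. A673 had RUNX2 counts of 52, 51 and 32.1, and its distal share varied widely between libraries (39.3% ± 53.3).

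**Figure D2:**
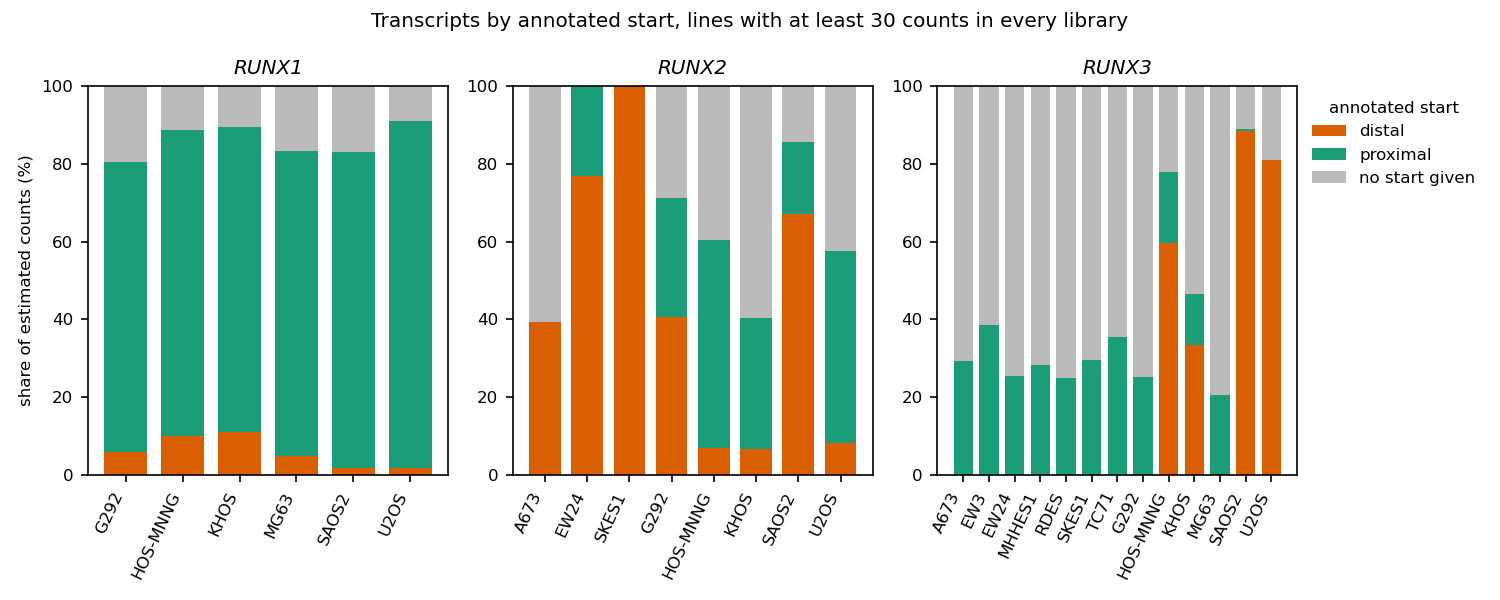
Share of the estimated counts of RUNX1, RUNX2 and RUNX3 (percent, mean of 3 libraries) from transcripts with the distal start, the proximal start or no start in GENCODE v29, in the lines where every library held at least 30 counts of the gene. RUNX1 is mainly proximal, RUNX2 has a distal share of 67.0% in SAOS2 and of 8.24% in U2OS, where another 42.3% has no start given, and the distal RUNX3 share is 33.4% or more in SAOS2, U2OS, HOS-MNNG and KHOS and 0.336% in MG63.

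SUPT3H, whose span covers the distal RUNX2 start, was read by level only, since reads from overlapping genes may be shared. It measured 6.04 to 12.1 TPM in the Ewing sarcoma lines and 5.80 to 17.9 TPM in 4 osteosarcoma lines. It was near 0 in MG63 (0.142, 0.0715 and 0.130 TPM) and U2OS (0.0894, 0.118 and 0.0882 TPM). MG63 was also low in RUNX2, whereas U2OS was not.

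RUNX3 was the RUNX gene with the highest coding level in every Ewing sarcoma line. The libraries measured 101, 105 and 101 TPM in SKES1, 66.9, 68.2 and 75.4 TPM in EW24, 48.2, 44.2 and 42.97 TPM in MHHES1, and 44.5, 45.3 and 31.3 TPM in TC71. EW3 had 20.2, 25.8 and 24.4 TPM, RDES 20.8, 23.1 and 23.9 TPM, and A673 only 6.52, 5.83 and 4.88 TPM. Among the osteosarcoma lines the values were 22.4, 28.7 and 25.1 TPM in KHOS, 18.8, 20.3 and 21.5 TPM in HOS-MNNG, and 16.8, 17.9 and 19.9 TPM in MG63. SAOS2 had 20.7, 11.99 and 12.2 TPM, U2OS 2.40, 2.002 and 1.67 TPM, and G292 0.605, 0.830 and 0.764 TPM.

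The 4 highest lines were Ewing sarcoma lines and the 2 lowest were osteosarcoma lines, but the middle of the order was mixed. From KHOS down to SAOS2, each neighbouring pair (KHOS, EW3, RDES, HOS-MNNG, MG63 and SAOS2) overlapped. The means were 44.2 ± 32.7 TPM over 7 Ewing sarcoma lines and 13.6 ± 10.05 TPM over 6 osteosarcoma lines (SD). The fitted log2 fold change was 1.45 (SE 0.79), between 1.09 and 1.83 with a line or replicate left out.

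The lines also differed in which RUNX3 transcripts they held, although the start of the leading transcript in many of them is not given. The distal transcript NM_001031680.2 held 88.5% ± 3.39 of RUNX3 counts in SAOS2, 80.9% ± 12.5 in U2OS, 59.7% ± 6.15 in HOS-MNNG and 31.5% ± 9.05 in KHOS (SD, n = 3). In MG63, G292 and the Ewing sarcoma lines, XM_005246024.5, which has no start in GENCODE v29, led, followed by the proximal NM_004350.3. G292 is the least certain of them, since it held 42.3 to 76 RUNX3 counts per library and XM_005246024.5 took 51.9% ± 49.6 of them. XM_005246024.5 held 60.4% (EW3) to 73.8% (RDES) of counts across the Ewing sarcoma lines, and NM_004350.3 held 24.9% (RDES) to 38.5% (EW3). The lines at similar RUNX3 levels, such as RDES and HOS-MNNG, thus reached them with different transcripts. KHOS lay between the sets, since XM_005246024.5 held 32.2% ± 12.9 of its counts, about as much as the distal transcript.

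CBFB was present at a high level in every line and varied least of the 4 genes. Its 3 libraries measured 178, 138 and 135 TPM in RDES, 115, 123.5 and 116 TPM in MHHES1, 102, 123.3 and 104 TPM in EW3, and 94.1, 122.7 and 39.8 TPM in TC71. They measured 75, 80.4 and 73.96 TPM in HOS-MNNG, 91.1, 86.4 and 51.7 TPM in EW24, and 70.6, 71.5 and 66.3 TPM in A673. G292 had 47.5, 61.9 and 62.1 TPM, SAOS2 53.9, 50.6 and 53.5 TPM, U2OS 48.8, 46.4 and 40.5 TPM, and KHOS 48.1, 43.5 and 42 TPM. The lowest lines were SKES1 (40.98, 33.9 and 39.9 TPM) and MG63 (39.7, 36.5 and 31.2 TPM). Of 12 neighbouring pairs in the order, 8 overlapped.

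The CBFB means were 92.6 ± 36.8 TPM over 7 Ewing sarcoma lines and 51.97 ± 14.1 TPM over 6 osteosarcoma lines (SD), and the groups overlapped. The fitted log2 fold change was 0.66 (SE 0.27). The SD of log2(TPM + 1) over the 13 lines was 0.64 for CBFB, more than in 47.7% of 16538 genes with a mean of at least 1 TPM. It was 2.25 for RUNX1 (97.2% of genes were lower), 2.04 for RUNX2 (96%, by total TPM with the noncoding transcripts) and 1.69 for RUNX3 (92.2%). NM_001755.3 held 54.4% (HOS-MNNG) to 67.6% (EW3) of CBFB counts across the lines, and NM_022845.3, whose protein differs at the C-terminus, held most of the rest.

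Summed over coding transcripts, the RUNX genes together ranged from 6.26 ± 0.874 TPM in A673 to 103 ± 2.26 TPM in SKES1 (SD, n = 3). RUNX3 made up 91.7% of that sum in A673 and at least 98.5% in the other Ewing sarcoma lines. The osteosarcoma lines were mixed. RUNX1 led in G292 (85.5%) and U2OS (76.2%), RUNX2 in SAOS2 (69.5%), and RUNX3 in MG63 (66.4%), KHOS (57.4%) and HOS-MNNG (41.6%, with RUNX1 at 40.5%). The ratio of CBFB to the RUNX sum was 11.2 ± 1.23 in A673 and 0.372 ± 0.0448 in SKES1, the 2 ends of the order, both Ewing sarcoma lines. It was under 1 also in SAOS2 (0.567 ± 0.0157) and U2OS (0.840 ± 0.108), and was 1.02 ± 0.171 in KHOS. These are ratios of RNA, on a scale per transcript length, and protein was not measured.

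**Figure D3:**
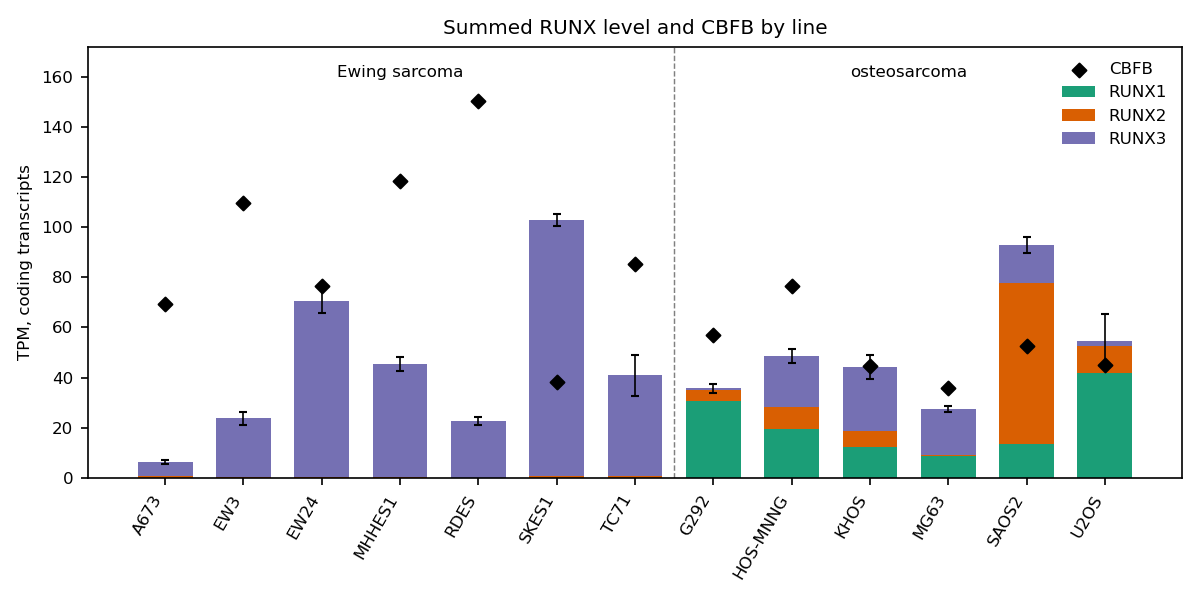
Summed TPM of the coding transcripts of RUNX1, RUNX2 and RUNX3 per line (stacked bars, mean of 3 libraries, error bar SD of the sum) with CBFB as a diamond. Ewing sarcoma lines hold nearly only RUNX3, and CBFB lies below the RUNX sum in SKES1, SAOS2 and U2OS and close to it in KHOS and EW24.

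Across the 13 line means, the RUNX1 and RUNX2 levels had a Pearson r of 0.602 (Spearman 0.643) and RUNX1 and RUNX3 one of -0.661 (Spearman -0.632), given as a description because the lines fall into 2 tumour types. The genes most like each member over the 13 line means, among 15702 genes with a line at 5 TPM or more, were picked by the correlation of log2(TPM + 1). For RUNX1 they were LIF, a cytokine (r 0.975), PTPRM, a receptor phosphatase (r 0.974), and ITGA3, an integrin subunit (r 0.970). LIF spanned 0.00528 to 0.576 TPM among Ewing sarcoma lines and 36.1 to 51.2 TPM among osteosarcoma lines. For RUNX2 they were LOC124900605 (0.912), LHB (0.902) and LINC02302 (0.891), each highest in SAOS2, and without SAOS2 the correlations were 0.769, 0.772 and 0.723. For RUNX3 they were GPX7 (0.918), INTS8 (0.891) and MEIOB (0.872), and for CBFB they included BTAF1 (0.905) and DCAF10 (0.872). RUNX2 entered these correlations by total TPM, most of which belonged to its short noncoding transcripts in SAOS2, SKES1 and EW24. The points share libraries, tumour type and depth.

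The genes around the RUNX factors came from lists of partners and targets written by role, but with earlier results of these libraries known. FDR values of listed genes between the tumour types are therefore a description and not an independent test. Here edgeR's quasi-likelihood test with Benjamini-Hochberg adjustment over all genes was applied to line sums. It called 14.4% of 21975 genes between the tumour types at a false discovery rate (FDR) under 0.05, beside a median log2 fold change, Ewing sarcoma over osteosarcoma, of -0.06 over every gene tested. Of 16 corepressors and antagonists, all tested, 0 were called higher and 1 lower in Ewing sarcoma, with a list median of 0.13. The gene called was TWIST2 (-5.77, SE 0.82, FDR 0.00086), an antagonist of RUNX2 in bone precursors, which was named after its value was seen and overlapped between the tumour types. The Groucho corepressors were not called. TLE1 averaged 3.22 ± 3.07 TPM over Ewing sarcoma lines against 17.3 ± 15.9 TPM over osteosarcoma lines (FDR 0.063), TLE2 17.3 ± 8.79 and 4.43 ± 6.45 TPM (FDR 0.158), TLE3 34.9 ± 11.8 and 17.2 ± 6.54 TPM (FDR 0.073) and TLE4 2.61 ± 3.22 and 16.6 ± 23.8 TPM (FDR 0.151; SD, n = 7 and 6). RUNX1T1, the corepressor fused to RUNX1 in some leukaemias, stayed at or below 3.02 TPM in every line and was not called (0.39, FDR 0.86).

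Of 17 coactivators and partners, 1 was called higher and 3 lower, with a median of 0.10. SMAD4, the common mediator of BMP and TGF-beta signals, was higher (0.72, SE 0.18, FDR 0.018), at 14.8 to 36.97 TPM among Ewing sarcoma lines and 8.62 to 15.9 TPM among osteosarcoma lines. The lines did not overlap in log2 CPM, the scale of the naming rule, though they did in TPM. Among those called lower were WWTR1 (-2.18, FDR 0.027), which encodes TAZ, and SMAD3 (-1.37, FDR 0.0082), which overlapped and were named after their values were seen. Of 6 ubiquitin ligases of RUNX proteins, 0 were called higher and 1 lower. That was SMURF2 (-1.32, SE 0.20, FDR 0.0013), at 9.63 to 18.4 TPM among Ewing sarcoma lines and 17.2 to 44.6 TPM among osteosarcoma lines, again apart in log2 CPM only.

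Of 14 bone genes downstream of RUNX2, 9 passed the filter on low counts, 0 were called higher and 5 lower, and the median of the 9 was -2.88. TNFRSF11B, the decoy receptor osteoprotegerin, was lower (-8.14, SE 1.65, FDR 0.0063), with at most 0.787 TPM in an Ewing sarcoma line and 2.43 to 271 TPM among osteosarcoma lines. The other 4, named after their values were seen, overlapped: SPP1 (-8.71), COL1A1 (-4.29), MMP13 (-6.94) and PHEX (-2.04). Their highest lines were not one and the same. Of the 14 genes, 6 had their highest line mean in SAOS2, the line with the most RUNX2, 4 in MG63, a line with little RUNX2, 3 in G292 and 1 in KHOS. How often genes in general peak in each of these lines is not given here, so the counts are a description. Some of these means were near 0: IHH (0.464 TPM) and IBSP (0.367 TPM) in SAOS2, and DMP1 (0.033 TPM) in G292. SP7 and COL1A1 (3192 TPM) were highest in SAOS2, and BGLAP in MG63 (7.40 TPM). For ALPL (-1.14, FDR 0.67) and BGLAP (-0.88, FDR 0.50), which were not called, the fitted values below 0 came with 1 high osteosarcoma line each, and the line medians given above were higher in Ewing sarcoma.

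The blood genes downstream of RUNX1 were mostly silent in all lines, and of 12 listed 5 passed the filter and 0 were called by edgeR. Their median was -0.41. CSF2, a cytokine gene, measured 0 in every Ewing sarcoma line and up to 26.1 TPM in HOS-MNNG, and did not pass the filter. Of 9 blood transcription factor partners, 7 were tested, 1 was called higher and 0 lower, with a median of 1.38. MYB was higher (2.90, SE 0.70, FDR 0.015), at 5.02 to 17.2 TPM among Ewing sarcoma lines and 0.0360 to 3.43 TPM among osteosarcoma lines. Of 9 genes linked to RUNX3, 8 were tested, with a median of -0.34. CLDN1, a tight junction gene, was called higher (4.82, SE 1.13, FDR 0.013) and CDKN1A, the cell cycle inhibitor p21, lower (-3.11, SE 0.66, FDR 0.0081). A673, the Ewing sarcoma line with the least RUNX3, had the most CLDN1 of all lines (122.5 TPM) and the most CDKN1A of the Ewing sarcoma lines (12.4 TPM). The T cell genes CD8A and ITGAE stayed at or below 0.969 and 0.130 TPM.

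**Figure D4:**
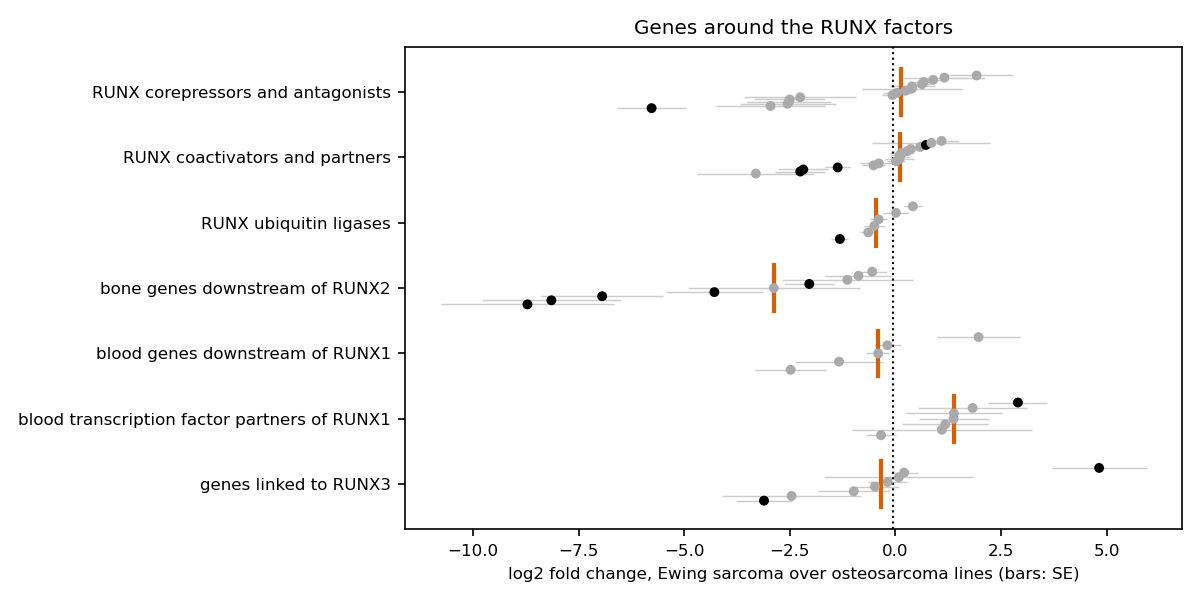
Log2 fold change, Ewing sarcoma over osteosarcoma lines, of the tested genes of 7 lists (points, bars show SE, black for an FDR under 0.05), with the list median (orange) and the median of all genes (dotted line, -0.06). All 9 tested bone genes lie below 0, although ALPL and BGLAP among them have the higher line median in Ewing sarcoma, and the other lists spread to both sides.

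KCNN1, the target of the hairpin and the check of the labels, measured 36.01 ± 3.61 TPM in parental A673, 30.4 ± 10.8 TPM in uninduced and 10.6 ± 3.02 TPM in induced libraries (SD, n = 3). Induced and uninduced libraries did not overlap (exact permutation p 0.1, and no smaller p is possible with 3 libraries each), and edgeR did not call the difference (-1.53, SE 0.52, FDR 1). None of the RUNX genes and CBFB was called different. RUNX3 measured 3.70, 3.95 and 2.21 TPM uninduced and 5.41, 3.88 and 1.33 TPM induced, and replicate 3 was the lowest in both groups. CBFB measured 28.2, 25.5 and 42.6 TPM uninduced and 28.8, 29.6 and 55.2 TPM induced, and replicate 3 was the highest in both. Within same-numbered pairs CBFB was higher in the induced library in 3 of 3, by little in replicate 1 (28.2 to 28.8 TPM). The share of all genes that moved 1 way in every pair is not given here, and the blocked fit below did not call CBFB. The edgeR log2 fold change was 0.19 for RUNX3 (SE 0.69, FDR 1) and 0.25 for CBFB (SE 0.17, FDR 1).

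RUNX1 (0 to 12 counts per library) and RUNX2 (1 to 26 counts) did not pass the filter in that comparison. Exact permutation tests of log2(TPM + 1) gave p = 0.9 for RUNX1, 1 for RUNX2, 0.9 for RUNX3 and 0.5 for CBFB, and 1 for each after adjustment over 8 tests. Over all genes edgeR called 0% of 14252 genes, with 94 at an unadjusted p under 0.05, and DESeq2 called 2. With the replicate number as a block, since same-numbered libraries deviated together, edgeR called 0.512%, and 0 of the members. The labels state no pairing, and induced replicate 2 correlated more with uninduced replicate 1 (0.588) than with uninduced replicate 2 (0.557). With the block, RUNX3 had a log2 fold change of 0.02 (SE 0.23, FDR 0.99) and CBFB 0.24 (SE 0.10, FDR 0.32). Of the 102 listed genes, not all of which were tested, 2 were then called. CDKN1A was higher after doxycycline by a log2 fold of 0.72 (SE 0.11, FDR 0.024), from 28.8, 31.8 and 19.4 to 52.4, 46.3 and 30.8 TPM. TLE2 fell by 0.72 (SE 0.13, FDR 0.040), from 6.20, 11.1 and 26.8 to 3.45, 6.04 and 18.2 TPM. In TPM, 0 of the 4 members were free of overlap between induced and uninduced libraries, beside 3.65% of all tested genes.

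**Figure D5:**
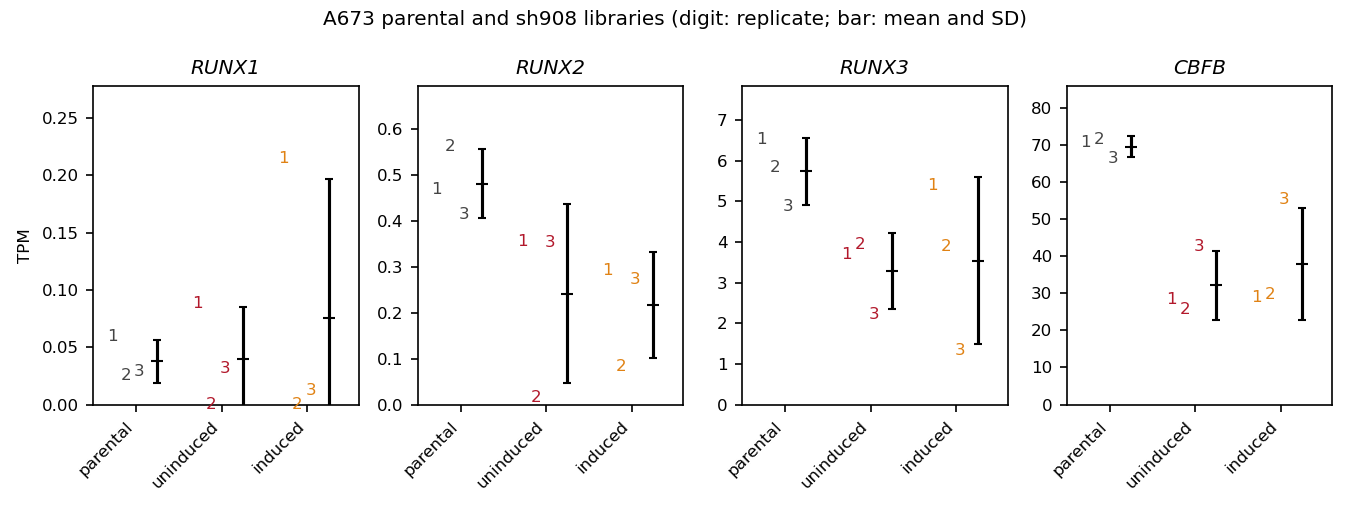
TPM of RUNX1, RUNX2, RUNX3 and CBFB in parental A673 and in uninduced and induced sh908 libraries, each library shown by its replicate digit, with the mean and SD (n = 3) beside it. CBFB lies at 66.3 to 71.5 TPM in parental and 25.5 to 42.6 TPM in uninduced libraries, and induced and uninduced libraries overlap for all 4 genes.

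The uninduced sh908 cells differed from parental A673 in CBFB. CBFB measured 32.1 ± 9.17 TPM in uninduced and 69.5 ± 2.74 TPM in parental libraries (SD, n = 3), and edgeR called it lower (-0.69, SE 0.12, FDR 0.018), where 15.1% of 15778 genes were called. The call was lost without any 1 of the 3 parental libraries (FDR 0.097 to 0.11) and without uninduced replicate 2 (FDR 0.074), while the fold change stayed between -0.74 and -0.64. On the TPM scale the difference of mean log2(TPM + 1) was -1.12, and the median of all tested genes was itself -0.32 on that scale, against 0.01 for the edgeR fold changes. RUNX3 (-0.28, SE 0.38, FDR 0.64) and RUNX2 (-1.26, SE 0.71, FDR 0.26) were not called, and RUNX1 did not pass the filter. RUNX2 was called without uninduced replicate 3 (-2.17, FDR 0.0025). In TPM, CBFB, RUNX2 and RUNX3 did not overlap between the groups, beside 46.6% of all tested genes, each with an exact permutation p of 0.1 (0.267 adjusted over 8 tests).

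The share of NM_001755.3 in CBFB was 54.7% ± 5.30 in uninduced and 61.5% ± 0.169 in parental libraries (SD, n = 3; exact permutation p 0.1, 0.4 adjusted over 4 tests), and 55.9% ± 4.12 in induced libraries (exact permutation p 0.7 against uninduced). XM_005246024.5 held 89.2% ± 14.7 of RUNX3 TPM in uninduced, 82.1% ± 17.6 in induced and 71.5% ± 31.1 in parental libraries, and neither step differed beyond the spread between libraries (exact permutation p 0.7 for induced against uninduced and 0.5 for uninduced against parental). These share tests were added after the data were seen. RUNX1 and RUNX2 had too few counts in the sh908 libraries for a share.

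Of the 102 listed genes, not all of which were tested, 13 were called between uninduced and parental cells, beside 15.1% of all genes tested. Among corepressors and antagonists, TLE2 (2.80), HEY1 (2.06), TWIST2 (1.94) and HDAC3 (0.72) were higher and HDAC4 (-0.69) lower, of 13 tested. Among partners, SMAD2 (1.195) was higher and YAP1 (-1.19) and ETS1 (-0.96) lower, of 17 tested. SMURF2 (-0.64) was lower, of 6 ligases tested. Of 4 tested genes linked to RUNX3, CDKN1A (1.67) was higher and JAG1 (-1.998) lower, and of 5 tested Ewing sarcoma markers NKX2-2 (1.21) and PRKCB (0.90) were higher. Of the 6 bone genes and 5 blood transcription factor partners tested, 0 were called by edgeR. FDR values lay between 0.0062 (NKX2-2) and 0.0496 (SMURF2). Without any 1 parental library, 2 to 8 genes were called in all, so these calls rest on all 3 parental libraries. The sh908 libraries held 16619617 to 24818664 estimated counts and had a mean length minus effective length of 140.5 to 168.9 bases, against 26814221 to 37815602 counts and 179.5 to 189.8 bases in parental A673. This library difference and one between the cells cannot be told apart.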

How the data were processed

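The authors deposited, for each of 45 poly(A) libraries, 1 table with 177816 RefSeq transcripts as rows. The columns, per the file headers, are estimated counts (expected counts, not scaled for depth), TPM values, lengths and other values (the effective length in bases). The submitters' processing notes name fastp 0.19.5, kallisto 0.46.2, hg38 and GRCh38.p14.

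Transcripts were joined to 41582 genes by accession (95.6% matched), and counts and TPM were summed per symbol. Counts were rounded and tested with edgeR 4.0.16 (filterByExpr, TMM, robust quasi-likelihood, FDR under 0.05) under R 4.3.3. The 3 libraries of a line were summed first. Each SE of a fold change is its absolute value divided by the square root of the quasi-likelihood F statistic. Alternatives used DESeq2 1.42.0. Single members were also compared between sh908 groups on the log2(TPM + 1) scale by exact permutation (2-sided). The tests were checked on simulated data. Other versions were Python 3.11.15, numpy 2.4.6, pandas 2.3.3, scipy 1.17.1 and matplotlib 3.10.9.

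Transcript starts came from GENCODE v29, through its RefSeq links. The members and lists were chosen with earlier results of these data known. Named between tumour types were, per list, up to 3 called genes each way with the largest fold change and no overlap of lines in log2 CPM, in the sh908 comparisons any called list gene, per member the 3 most similar genes, and KCNN1, NKX2-2, SP7, TLE1 to TLE4, RUNX1T1, SPI1 and PTPRC. Same-numbered induced and uninduced libraries deviated together (correlations 0.662, 0.557 and 0.874, each over 0.1), so their numbers were taken as pairs, although replicates 1 and 2 also correlated across numbers (0.494 and 0.588). RUNX1-AS1, RUNX2-AS1 and RUNX3-AS1 were not analysed here. Some genes that these rules reach are not reported here.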

Additional observations from a re-analysis of the deposited data

Results flagged for a closer look

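RUNX2 in SAOS2 measured 187 TPM as a mean of 3 libraries, and its gap to the next osteosarcoma line took up 0.940 of the range of the 6 lines, more than the limit for a sample far from the others. It was the single one found in 10 groups of line means, of which chance flags about 1 in 20. Over coding transcripts alone SAOS2 measured 64.5 ± 2.47 TPM (SD, n = 3) against 11 TPM in U2OS, and its estimated counts (5437, 5797 and 5548) were also above those of every other line.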

How the results depend on the processing

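The fitted fold changes of the 4 genes between tumour types kept their direction under all 21 alternatives tried for each, including HOS-MNNG and KHOS taken as 1 line. The RUNX1 difference of mean log2(TPM + 1), -4.22, became -7.06 and -8.75 with a pseudocount of 0.1 and 0.01 TPM, because its level in Ewing sarcoma lines lies under 1 TPM. The mean share of NM_001001890.3 moved from 63.9% of TPM to 75.2% of counts. Between tumour types, 5406 genes were called with DESeq2 and 16743 with the replicate block, which takes only the spread within lines, against 3175. Leaving out a line gave 2310 (without SKES1) to 3172, and leaving out a replicate of all lines 2828 to 2924.

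For doxycycline, 2 genes were called with DESeq2, 12 in a fit of all 45 libraries and 73 with the replicate block, against 0. RUNX3 turned from 0.19 to -0.35 without induced replicate 1 and to -0.14 without uninduced replicate 3, and ranged from -0.35 to 0.65 with a library left out. Between uninduced and parental cells, 4169 genes were called with DESeq2 and 7558 with all 45 libraries, against 2388, and 2 to 10202 with a library left out. RUNX3 turned from -0.28 to 0.067 without uninduced replicate 3, and ranged from -0.53 to 0.067. RUNX2 ranged from -2.17 to -0.79 and CBFB from -0.74 to -0.64. The numbers did not pair these 2 groups (correlations 0.0484, 0.0834 and 0.248), and not every library correlated best with its own number. With the replicate block 319 genes were called, and CBFB was -0.69 (FDR 0.072).

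RUNX1 and RUNX2 shares in the sh908 groups were not run, since their libraries did not reach 30 counts. Depth limits every RUNX1 value in the Ewing sarcoma lines, and RUNX2 in EW3, MHHES1, RDES, TC71, MG63 and the sh908 libraries, where at least 1 library held under 30 counts.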
